A study of Mus musculus with 6 samples.

Results

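The integrated stress response gene Atf4 and 9 genes that the ATF4 protein is known to switch on were examined in bEnd.3 cells with and without added mitochondria. The genes were taken by symbol through the GRCm38 annotation, and all 10 were found, on 11 of the 55335 deposited gene identifiers. The additional identifier is a short model inside Ddit3, at no more than 0.0051 FPKM in any library, and it was not tested. FPKM are fragment numbers scaled for gene length and depth, so levels of different genes can be set side by side. RNA was sequenced in 6 libraries of bEnd.3, an immortalised mouse brain endothelial line, of wild-type genotype per the labels. In 3 libraries the cells had received mitochondria isolated from primary mouse astrocytes, resuspended in 100 µl of medium, and in the 3 control libraries the same volume of medium without mitochondria. The co-incubation lasted 24 h. The labels number the libraries within each group and do not state that cultures were separate. The p-values therefore refer to the spread among these 6 libraries, part or all of which may be technical.

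ATF4 is a transcription factor whose own messenger RNA is translated better when the translation factor eIF2 is phosphorylated, which happens on shortage of amino acids, stress of the endoplasmic reticulum, heme shortage or mitochondrial dysfunction. It then raises genes for making and importing amino acids, for the mitochondrial branch of one-carbon metabolism and for feedback and cell death. Because much of its control is at translation and protein stability, the level of Atf4 messenger RNA need not follow ATF4 activity. In cells with impaired mitochondria these target genes are known as one of the main nuclear responses.

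By an estimate from the values themselves, sought within a preset range, control depth was 17100000 to 21200000 fragments. With mitochondria it was 21900000 to 27300000, so that depth differed without overlap. Of 13 endothelial markers 7 were under 1 FPKM in every library, Tek, Emcn, Erg and Vwf among them. The defining genes Pecam1, Cdh5 and Cldn5, also of these 7, reached no more than 0.27, 0.0685 and 0.13 FPKM. Endothelial is therefore used here as the description of the line, and the identity of the cells was not tested. Eng and Cd34 were at 55.5 and 58.0 FPKM in their lowest libraries. Of 10 fibroblast and mural markers 5 were under 1 FPKM in every library, Col1a2 and Dcn among them. Col3a1 stood at 214 to 248 FPKM and the mural marker Pdgfrb at 47.9 to 72.0 FPKM. Summed over the lists, endothelial markers stood at 136 to 144 FPKM in the controls and 159 to 171 with mitochondria, and 10 fibroblast and mural markers at 425 to 461 and 375 to 414 FPKM. The groups did not overlap in either sum, but members of both lists went opposite ways. Among endothelial markers Cd34, which makes up much of the sum, was called higher, at 60.3 ± 2.49 and 80.1 ± 1.84 FPKM (limma adjusted p = 0.0265). Kdr, at 3.94 ± 0.249 and 3.00 ± 0.262, and Flt1, at 10.04 ± 0.932 and 7.75 ± 0.278 FPKM, lay lower without overlap and were not called. Among fibroblast and mural markers Col1a1 was called lower, at 138 ± 2.45 and 83.9 ± 3.19 FPKM (limma adjusted p = 0.00547). Pdgfra, at 18.4 ± 0.756 and 22.6 ± 0.587, and Acta2, at 1.64 ± 0.107 and 2.18 ± 0.215 FPKM (SD over 3 libraries throughout), lay higher without overlap and were not called. Of the 6 tested endothelial markers 2 lay lower and 1 higher without overlap, and of the 5 tested fibroblast and mural markers 1 and 2. Of all genes tested, 11.4% and 9.62% did so, while 0.649% were called lower and 0.467% higher. The part of depth and of these markers in the results was not tested.

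With mitochondria, Asns was lower and was the only 1 of the 10 genes to pass the test across all genes. Trib3, Chac1, Mthfd2, Sesn2 and Shmt2 also lay lower in every mitochondria library than in any control, without passing. Atf4 itself, Phgdh, Psat1 and Ddit3 overlapped between the groups. All 10 log2 changes were negative, from −0.70 to −0.13 with a median of −0.24, except that Psat1 turned to 0.02 without control replicate 3. Over all 12639 genes tested the median was −0.01 and 52% of the changes were negative. Of all genes tested, 0.649% were called lower and 11.4% lay lower in every mitochondria library than in any control.

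**Figure D1:**
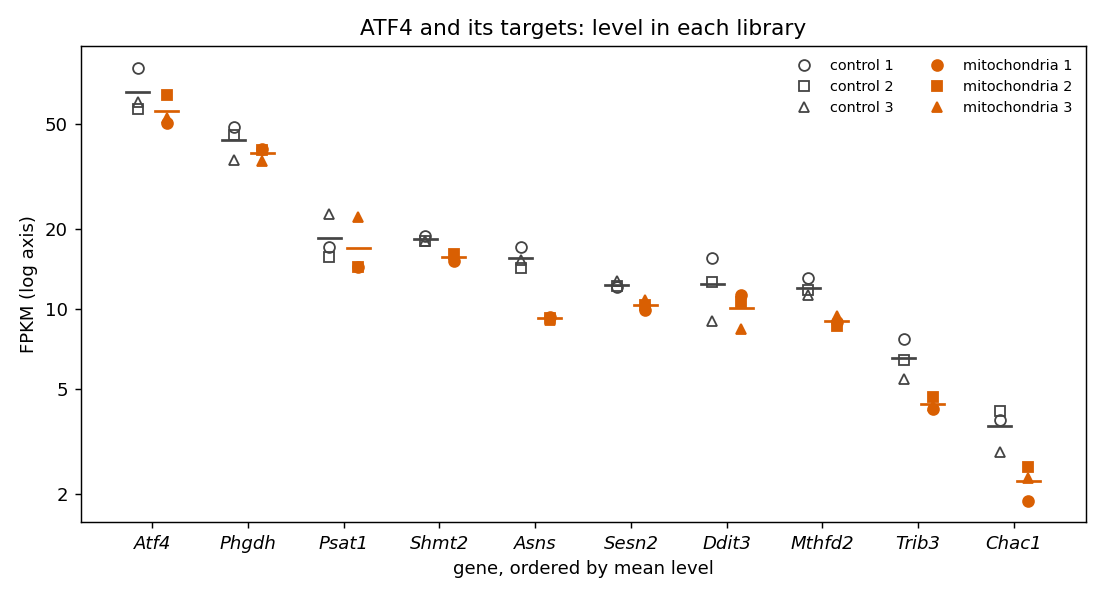
FPKM of Atf4 and its 9 targets on a log axis, ordered by mean level, with 1 symbol per library and a bar at the mean of the 3 libraries of a group. Open grey symbols are controls and filled orange symbols are libraries with mitochondria; the groups are apart for Asns, Shmt2, Sesn2, Mthfd2, Trib3 and Chac1 and overlap for the other genes.

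The 10 genes spanned a wide range of levels. Averaged over the 6 libraries, Atf4 was highest at 60.9 FPKM, above 94.02% of the genes tested, followed by Phgdh at 41.1 FPKM. Psat1 and Shmt2 averaged 17.8 and 17.02 FPKM, Asns 12.4, Sesn2 and Ddit3 11.3 each and Mthfd2 10.5 FPKM. From Psat1 to Mthfd2 each gene's range over the libraries overlapped that of its neighbour in this order. Trib3 at 5.44 FPKM and Chac1 at 2.92 FPKM were the lowest, and Chac1 was above 22.6% of the genes tested. All 10 were above 1 FPKM in every library and therefore passed the filter of 1 FPKM or more in at least 3 libraries in both groups.

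Atf4 (ENSMUSG00000042406, chromosome 15, 80255184 to 80257541, plus strand) was at 81.5, 56.8 and 60.3 FPKM in control replicates 1 to 3. With mitochondria it was at 50.3, 64.2 and 52.4 FPKM. Control replicate 1 stood above the other 5 libraries, and mitochondria replicate 2 lay above 2 of the 3 controls. The log2 change on log2(FPKM + 1) was −0.24 (SE 0.15, 95% interval −0.60 to 0.13, limma adjusted p = 0.553), so a difference in the transcript of the factor itself was not detectable beyond the spread. Without control replicate 1 the log2 change was −0.079, and over the 6 fits without a single library it ranged from −0.34 to that value.

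Asns encodes asparagine synthetase, which makes asparagine from aspartate and glutamine and is a classical target of the amino acid response. The gene lies on the minus strand of chromosome 6, 7675169 to 7693254 (ENSMUSG00000029752). It was at 17.1, 14.3 and 15.3 FPKM in the controls and at 9.33, 9.23 and 9.08 FPKM with mitochondria. The 3 mitochondria libraries were nearly equal, and all lay well under the lowest control. In bulk RNA, fewer cells expressing a gene and less RNA per cell cannot be told apart. The mean fell from 15.6 ± 1.42 to 9.21 ± 0.128 FPKM (SD over the 3 libraries of each group). On log2(FPKM + 1) the difference was −0.70, with an SE of 0.07, a 95% interval of −0.87 to −0.52 and an adjusted p of 0.0148 in limma. Asns ranked 26 by p among the genes tested, of which 1.12% passed at an adjusted p under 0.05 and 0.649% passed as lower. The call was lost without mitochondria replicate 1, 2 or 3, with limma adjusted p-values of 0.0770, 0.0807 and 0.0597, while the log2 change stayed between −0.70 and −0.69 in these fits.

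The best known route from ATF4 to its targets is a short DNA element bound by ATF4 together with a C/EBP family partner, with the consensus TGATGNAA. Promoter windows from 250 bases before to 50 bases after the RefSeq start (GRCm38.p6) were found for all 10 genes and searched on both strands. The letters were present in Asns, Chac1 and Trib3, that is, in 3 of the 10 genes, and in 3.97% of all 32851 windows of that length. The element in Asns is followed closely by GTTACA, known in this promoter as a second nutrient-sensing element, which 8.25% of all windows hold on either strand and which occurred in no other of the 10 genes. Asns, Chac1 and Trib3 also had the largest changes of the 10 genes, and whether a match goes with the change was not tested. The stretches that hold a match are shown. Each is written 5′ to 3′ on the strand of the gene, with the matched letters in capitals.
Asns, chr6:7693207-7693306, minus strand: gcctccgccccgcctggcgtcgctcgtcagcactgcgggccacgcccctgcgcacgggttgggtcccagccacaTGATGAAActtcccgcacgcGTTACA
Chac1, chr2:119351022-119351101, plus strand: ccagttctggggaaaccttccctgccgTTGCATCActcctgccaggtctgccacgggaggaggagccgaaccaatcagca
Trib3, chr2:152344025-152344054, minus strand: gctcaggtTTACATCAgccgggcggggatc
In Asns the element reads in the direction of the gene and begins 23 bases before the RefSeq start, and GTTACA begins 3 bases before it and spans it. The outermost GENCODE transcript of Asns starts upstream of both. In Chac1 the element is on the opposite strand and begins 193 bases before the start. In Trib3 it is also on the opposite strand and begins at base 15 after the RefSeq start, which is upstream of the GENCODE start. A match of letters describes the window and does not show that a factor binds there, and windows without a match can have elements farther away.

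Serine synthesis branches off glycolysis, and Phgdh encodes its first enzyme, which oxidises 3-phosphoglycerate. Phgdh (ENSMUSG00000053398, chromosome 3, 98313170 to 98339990, minus strand) was at 48.6, 45.3 and 36.4 FPKM in the controls. With mitochondria it was at 40.2, 39.7 and 36.1 FPKM. The replicates numbered 3 were the lowest of both groups and nearly equal, and the groups overlapped, with a log2 change of −0.15 (SE 0.11, 95% interval −0.41 to 0.10, limma adjusted p = 0.595). The log2 change was −0.070 without control replicate 1 and −0.27 without control replicate 3. The Phgdh values are uncertain, since 56.3% of the 31-base words of its transcripts also occur in 26 other genes, 23 of them annotated as pseudogenes. Those 26 genes together held 4.44 to 5.27 FPKM per library, so reads could be assigned to either.

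Psat1 encodes the next enzyme of the pathway, the phosphoserine aminotransferase, on chromosome 19 (ENSMUSG00000024640, 15904678 to 15947337, minus strand). It was at 17.1, 15.7 and 22.9 FPKM in the controls and at 14.4, 14.4 and 22.2 FPKM with mitochondria. The libraries numbered 3 were the highest of both groups, so that Psat1 varied more within the groups than between them. Its log2 change was −0.13 (SE 0.20, 95% interval −0.60 to 0.34, limma adjusted p = 0.823), and it was 0.02 without control replicate 3 (adjusted p = 0.970). In the other fits without a single library it lay between −0.33 and −0.030. Psph, the phosphatase that completes serine synthesis, was at 4.23 ± 0.701 and 3.85 ± 0.240 FPKM (SD, n = 3 in each group) with overlapping groups.

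Shmt2 and Mthfd2 are the mitochondrial enzymes that split serine into glycine and a one-carbon unit and then oxidise that unit on its way to formate. Shmt2 (ENSMUSG00000025403, chromosome 10, 127517123 to 127522444, minus strand) was at 18.8, 17.98 and 18.04 FPKM in the controls and at 15.1, 16.1 and 15.99 FPKM with mitochondria. The groups were apart by a narrow margin, and the log2 change was −0.20 (SE 0.05, 95% interval −0.33 to −0.08, limma adjusted p = 0.145). Mthfd2 (ENSMUSG00000005667, chromosome 6, 83305691 to 83325908, minus strand) was at 13.1, 11.7 and 11.3 FPKM and, with mitochondria, at 8.93, 8.59 and 9.37 FPKM. Every mitochondria library lay below the lowest control, and the log2 change of −0.39 (SE 0.07, 95% interval −0.56 to −0.22) had a limma adjusted p of 0.0665. It did not pass in any other setting either, with adjusted p-values of 0.0508 to 0.248 over the 15 planned ones.

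The cytosolic and alternative enzymes of the same steps, and Mthfd1l of the next step, had overlapping groups. Shmt1, the cytosolic counterpart of Shmt2, was at 7.58 ± 0.694 and 6.85 ± 0.401 FPKM (limma adjusted p = 0.546). Mthfd2l, the isoenzyme of Mthfd2, was at 2.04 ± 0.129 and 1.82 ± 0.214 FPKM (limma adjusted p = 0.621). The trifunctional cytosolic enzyme Mthfd1 was at 14.7 ± 0.682 and 14.5 ± 0.695 FPKM, and Mthfd1l, which releases formate in mitochondria, at 7.63 ± 0.879 and 8.52 ± 0.539 FPKM (SD, n = 3 in each group). The ratio of Shmt2 to Shmt1 was 2.31 to 2.65 in the controls and 2.15 to 2.501 with mitochondria. The ratio of Mthfd2 to Mthfd2l was 5.42 to 6.44 and 4.32 to 5.49. Both ratios overlapped between the groups.

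Trib3 encodes a pseudokinase that ATF4 and CHOP raise and that restrains ATF4 activity in turn. Trib3 (ENSMUSG00000032715, chromosome 2, 152337422 to 152344032, minus strand) was at 7.68, 6.40 and 5.43 FPKM in the controls and at 4.20, 4.66 and 4.28 FPKM with mitochondria. The controls were spread, yet all were above the highest mitochondria library. The log2 change was −0.47 (SE 0.11, 95% interval −0.74 to −0.20, limma adjusted p = 0.133).

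Chac1 encodes an enzyme that breaks down glutathione in the cytosol, and Ddit3 encodes CHOP, the transcription factor of prolonged endoplasmic reticulum stress. Chac1 (ENSMUSG00000027313, chromosome 2, 119351229 to 119354381, plus strand) was at 3.82, 4.12 and 2.89 FPKM in the controls and at 1.89, 2.52 and 2.30 FPKM with mitochondria. The groups did not overlap, and the log2 change of −0.51 (SE 0.13, 95% interval −0.81 to −0.21) had a limma adjusted p of 0.140. Its single transcript model and the implied depths put about 84 to 125 fragments behind each value, for a counting error of 8.94% to 10.9%. Ddit3 (ENSMUSG00000025408, chromosome 10, 127290774 to 127296288, plus strand) was at 15.6, 12.7 and 8.98 FPKM and, with mitochondria, at 11.3, 10.6 and 8.38 FPKM. Its lowest values were in the libraries numbered 3 of both groups, the groups overlapped, and the log2 change was −0.25 (SE 0.19, 95% interval −0.71 to 0.21, limma adjusted p = 0.626). Without control replicate 1 the Ddit3 change was −0.083, without mitochondria replicate 3 it was −0.14, and without control replicate 3 it was −0.45. The 3′ end of Ddit3 overlaps Mars on the opposite strand. Strand use in the authors' quantification is not stated, so reads of that stretch could belong to either gene.

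Sesn2 encodes sestrin 2, a leucine-binding inhibitor of mTORC1 that ATF4 raises during starvation. Sesn2 (ENSMUSG00000028893, chromosome 4, 132492032 to 132510501, minus strand) was at 12.1, 12.3 and 12.7 FPKM in the controls and at 9.88, 10.3 and 10.8 FPKM with mitochondria. Both groups were tight and apart, with a log2 change of −0.23 (SE 0.06, 95% interval −0.37 to −0.10, limma adjusted p = 0.134). Its relatives Sesn1 and Sesn3, controlled mainly by p53 and FOXO factors, were at 6.995 ± 0.360 and 6.31 ± 0.829 FPKM and at 16.2 ± 2.01 and 17.2 ± 0.323 FPKM (SD, n = 3 in each group). Sesn3 was thus the most abundant sestrin transcript in both groups.

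**Figure D2:**
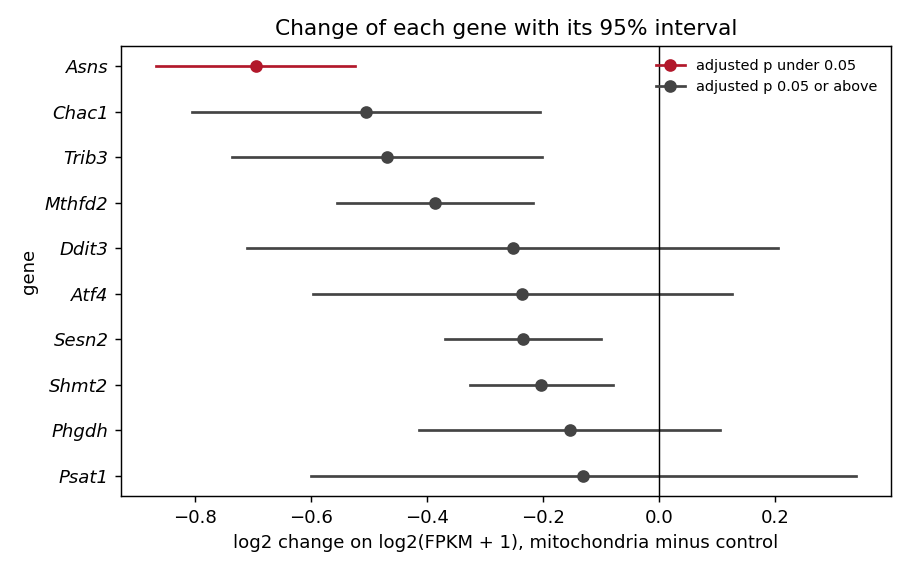
Log2 change on log2(FPKM + 1), mitochondria minus control, of each of the 10 genes, with the 95% interval of the limma fit before adjustment. Asns, in red at −0.70, passed at an adjusted p under 0.05; the intervals of Atf4, Phgdh, Psat1 and Ddit3 include 0.

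In counts, 1 of the 10 genes was called lower and 0 were called higher in limma, against 0.649% and 0.467% of all genes tested. At an unadjusted p under 0.05 there were 6 lower and 0 higher, where 7.32% and 6.58% of all genes were. The groups did not overlap, with mitochondria lower, in 6 of the 10 genes and in 11.4% of all genes tested. The genes were chosen with earlier results of these data known, so these counts describe them and test nothing.

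The libraries differed among themselves within each group, and not in the same way for all 10 genes. Control replicate 1 was above its group mean in 8 of the 10 genes, with Atf4, Asns, Phgdh, Shmt2, Mthfd2, Ddit3 and Trib3 at their highest there. Control replicate 3 was below its group mean in 8 of the 10. In the libraries numbered 3 of both groups Psat1 was at its highest and Phgdh and Ddit3 at their lowest. Without both of these libraries, a comparison chosen after seeing the data, the SE of Psat1 went from 0.20 to 0.06 at a log2 change of −0.18 (limma adjusted p = 0.313) and that of Ddit3 from 0.19 to 0.11 at −0.33 (adjusted p = 0.272). Asns had the same log2 change of −0.70 in that comparison and no longer passed (adjusted p = 0.0811).

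**Figure D3:**
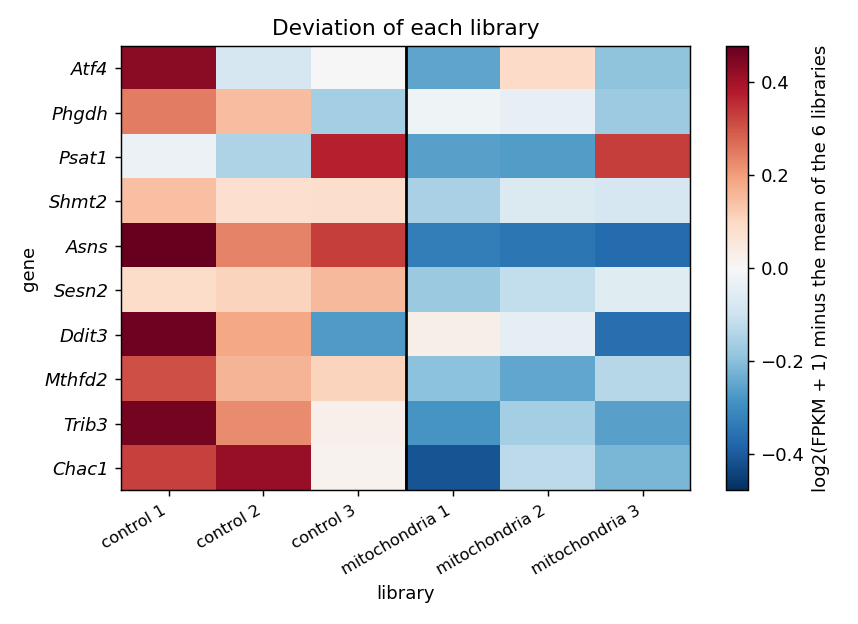
Colour gives log2(FPKM + 1) of each gene in each library minus the gene's mean over the 6 libraries, red for above and blue for below, with a line between the 3 controls and the 3 mitochondria libraries. Asns, Shmt2, Sesn2, Mthfd2, Trib3 and Chac1 are red in all controls and blue in all mitochondria libraries. Psat1 is red in both libraries numbered 3 and blue in the other 4.

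By position, Ddit3 and Shmt2 lie 221 kb apart on chromosome 10. Asns and Mthfd2 share chromosome 6 and Chac1 and Trib3 share chromosome 2, in each case far apart. The transcripts of Atf4, Asns, Mthfd2, Trib3, Chac1 and Sesn2 share 0 of their 31-base words with any other gene. Psat1 shares 2.18%, Shmt2 3.61% and Ddit3 6.78%, the last including its own additional model.

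Around these 10 genes, 93 further genes of the same pathway were taken in 5 lists, and 86 were expressed highly enough to be tested. None was called in limma, in the reported fit or in any other setting tried. In the reported fit 1.12% of all genes tested were called, so 0 of 86, and 0 in each list, is near that share. At an unadjusted p under 0.05 there were 15 lower and 4 higher, where 7.32% and 6.58% of all genes tested were. The groups did not overlap in 22 with mitochondria lower and in 7 with mitochondria higher, where 11.4% and 9.62% of all genes tested did so. The median log2 change of the 86 was −0.06, and 62 changes were negative, against 52% of all genes tested.

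Amino acid transporters had the lowest median of the 5 lists, −0.19, with 0 of 11 tested called and 4 lower at an unadjusted p under 0.05, against 7.32% of all genes. Slc3a2, the heavy chain that carries several amino acid exchangers to the membrane, was at 40.4, 35.3 and 37.5 FPKM in the controls and at 32.6, 31.4 and 32.6 FPKM with mitochondria (limma adjusted p = 0.174). Slc1a5, which imports glutamine, was at 4.94 ± 0.471 and 3.78 ± 0.410 FPKM, and Slc1a4, which carries serine and alanine, at 4.29 ± 0.170 and 3.51 ± 0.283 FPKM (SD, n = 3 in each group). The groups were apart for Slc3a2, Slc1a5 and Slc1a4, which were picked for the smallest p of the list. Of the 11 tested, 4 lay lower and 0 higher without overlap, against 11.4% and 9.62% of all genes tested. The cystine transporter Slc7a11, a further well-known ATF4 target, was at 0.924 FPKM or less in every library and was not tested.

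Of 22 tested enzymes and carriers of serine, glycine, proline and one-carbon metabolism, 0 were called, with 2 lower and 1 higher at an unadjusted p under 0.05, shares near those of all genes (7.32% and 6.58%). The list's median was −0.04. Cth, the cystathionine lyase that makes cysteine, was at 9.38, 8.32 and 8.01 FPKM in the controls and at 5.68, 6.07 and 4.09 FPKM with mitochondria. Its log2 change of −0.62 (SE 0.13, limma adjusted p = 0.0934) did not pass, although no library of one group reached the other. Without overlap 3 of the 22 lay lower and 2 higher, near the 11.4% and 9.62% of all genes tested. Gldc, of the glycine cleavage system, was at 2.41 ± 0.0163 and 1.85 ± 0.163 FPKM. Sfxn1, the carrier that takes serine into mitochondria, went the other way, at 3.88 ± 0.371 and 4.97 ± 0.114 FPKM (SD, n = 3 in each group, limma adjusted p = 0.142).

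The 20 cytosolic aminoacyl-tRNA synthetases, which load tRNAs and many of which ATF4 raises, had 0 called, 4 lower at an unadjusted p under 0.05 (7.32% of all genes) and a median log2 change of −0.08. Aars was at 24.0 ± 1.84 and 19.8 ± 0.133 FPKM, Mars at 20.99 ± 0.690 and 18.7 ± 0.487 and Gars at 57.6 ± 2.55 and 51.7 ± 1.49 FPKM (SD, n = 3 in each group). These 3 genes were picked for the smallest p of the list, which favours groups that are apart, as theirs were. Their limma adjusted p-values were 0.135, 0.246 and 0.272. In the list 7 of 20 genes lay lower and 2 higher without overlap, against 11.4% and 9.62% of all genes tested.

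Among 16 tested transcription factors and other stress outputs of ATF4, 0 were called, with 4 lower and 2 higher at an unadjusted p under 0.05 (7.32% and 6.58% of all genes) and a median of −0.05. The list also holds Sesn1 and Sesn3, which are controlled mainly by p53 and FOXO factors. Ppp1r15a, which encodes GADD34, the subunit that directs a phosphatase to eIF2 and so ends the response, was at 11.5, 12.02 and 12.3 FPKM in the controls. With mitochondria it was at 8.77, 8.78 and 9.83 FPKM, and the change of −0.36 on the log2 scale (SE 0.06) had a limma adjusted p of 0.0661. Atf5, a relative of Atf4 that acts in the mitochondrial stress response, was at 14.7 ± 0.528 and 11.7 ± 1.15 FPKM (limma adjusted p = 0.140). Map1lc3b, which encodes the autophagosome protein LC3B, was at 13.6 ± 0.433 and 15.7 ± 0.783 FPKM (SD, n = 3 in each group, limma adjusted p = 0.202). Fgf21 was listed at 0 in 5 of the 6 libraries and Stc2 in all 6.

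Upstream of ATF4, 17 genes for the eIF2 kinases, the eIF2 and eIF2B subunits, a phosphatase subunit and the mitochondrial relay were all tested, with 0 called, 1 lower and 1 higher at an unadjusted p under 0.05 (7.32% and 6.58% of all genes) and a median of −0.03. Eif2b4, a subunit of the factor that recharges eIF2, was at 14.2 ± 1.25 and 11.95 ± 0.559 FPKM. Eif2ak4, which encodes the amino acid sensor kinase GCN2, was at 5.12 ± 0.291 and 5.94 ± 0.0943 FPKM (limma adjusted p = 0.251). Ppp1r15b, the constitutive partner of the eIF2 phosphatase, was at 17.8 ± 0.792 and 16.3 ± 0.568 FPKM. Oma1 and Dele1, the protease and the messenger that report mitochondrial stress to the kinase HRI, were at 4.62 ± 0.583 and 4.77 ± 0.0424 FPKM and at 2.94 ± 0.00609 and 3.03 ± 0.203 FPKM (SD, n = 3 in each group), and were named after their values were seen.

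**Figure D4:**
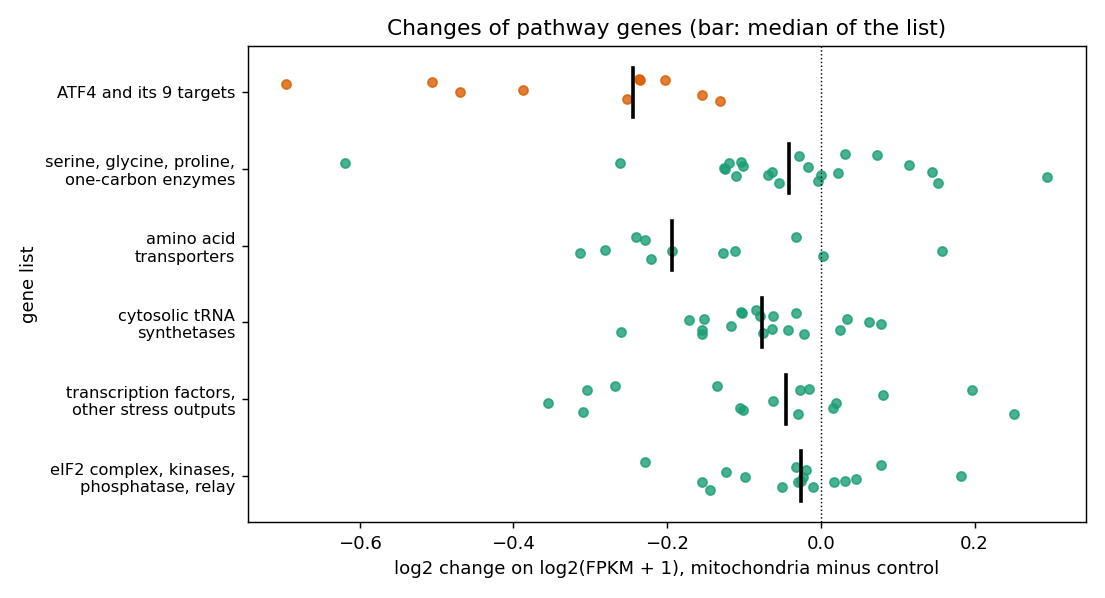
Log2 change on log2(FPKM + 1), mitochondria minus control, of each tested gene in the set of Atf4 and its 9 targets (orange) and in the 5 further lists of pathway genes (green), with a black bar at each list's median. The median of the first set is −0.24, and those of the further lists lie between −0.19 and −0.03.

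Genes of the endoplasmic reticulum branch, which shares Ddit3 with ATF4, overlapped between the groups. The chaperone gene Hspa5 was at 139 ± 23.5 and 143 ± 19.8 FPKM, Hsp90b1 at 97.7 ± 15.5 and 92.4 ± 8.20 FPKM and the transcription factor gene Xbp1 at 7.08 ± 0.467 and 7.38 ± 0.0679 FPKM (SD, n = 3 in each group). Their limma adjusted p-values were 0.942, 0.856 and 0.755. Hspa5 and Hsp90b1 were lowest in the libraries numbered 3 of both groups, as Ddit3 was.

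Phgdh and several other genes of serine metabolism are known to be abundant in astrocytes, the source of the mitochondria. Of 10 astrocyte markers, Aqp4 and Gjb6 were at 0 in every library and Gfap at 0.20 FPKM or less, and 5 of the 10 were under 1 FPKM in all libraries. The list summed to 40.7 to 91.7 FPKM in the controls and to 61.4 to 84.7 FPKM with mitochondria, which overlapped. Most of its spread was that of Gja1, at 11.7 to 46.0 FPKM among the controls, and of Ndrg2. Of the list, 3 genes lay higher with mitochondria without overlap, but only 1 of them was among the 4 tested. Of all genes tested, 9.62% lay higher without overlap. Aldoc was at 14.1 ± 1.61 and 17.9 ± 2.28 FPKM (SD, n = 3 per group, limma adjusted p = 0.268), and Slc1a2 was at 0.0683 FPKM or less in the controls and 0.0744 FPKM or more with mitochondria and was not tested. The third, Aldh1l1, an astrocyte marker that is also a cytosolic folate enzyme of one-carbon metabolism, was at 0.416, 0.455 and 0.302 FPKM in the controls and at 0.972, 1.15 and 1.06 FPKM with mitochondria. The groups were apart, but Aldh1l1 did not meet the filter. With no filter its log2 change was 0.57 at a limma adjusted p of 0.105.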

How the data were processed

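Stranded mRNA libraries were sequenced in 3 control samples and 3 samples given mitochondria, per the labels' protocols. The authors deposited 1 value per gene and library, read here as FPKM from the values, since the headers name no unit. The submitters' processing notes name FastQC 0.11.5, STAR 2.5.3a, StringTie 1.3.1c and GRCm38 (mm10), without roles, settings or annotation release. Symbols and positions came from GENCODE M21, which matched 55154 of 55335 identifiers. Depth was estimated from the multiples at which FPKM times exonic length clustered in genes with 1 transcript. The search covered only a preset range, so a depth outside it could not have been found. The fragment numbers and counting errors of Chac1 rest on this estimate. Of such low values 25.6% to 28.0% were whole multiples to a tolerance of 0.02, too few for a count model.

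limma 3.58.1 in R 4.3.3 was fitted on log2(FPKM + 1) with a group term alone and trended, robust empirical Bayes. Genes reaching 1 FPKM in at least 3 libraries were tested, 12639 in all. P-values were two-sided, adjusted by the Benjamini-Hochberg method over all genes tested, and genes were called at an adjusted p under 0.05. Changes on this scale understate those of low genes. The code was tested on simulated data. The 10 genes and the pathway lists were chosen with earlier results of these data known. All 10 were named, with the called genes or the 3 smallest p-values of each pathway list and Hspa5, Hsp90b1 and Xbp1. The marker genes given with values, Psph, Slc7a11, Sesn1, Sesn3, Fgf21, Stc2, Oma1, Dele1, Aldh1l1 and the paralogues Shmt1, Mthfd1, Mthfd1l and Mthfd2l were added after their values were seen. Alternatives were quantile normalization, median-ratio scaling, TPM, a pseudocount of 0.1 or 0.01, a minimum mean of 5 FPKM, no filter, plain empirical Bayes, a replicate block and leaving out each library.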

Additional observations from a re-analysis of the deposited data

How the results depend on the processing

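Of the 10 genes only Asns was called in any setting, in 11 of 15 planned settings, with log2 changes from −0.75 to −0.63 and adjusted p from 0.0111 to 0.0807. The number of the 10 called was 0 with no filter and 0 without both libraries numbered 3 (chosen after seeing the data), and it ranged from 0 to 1 when single libraries were left out, being 0 without any 1 of the mitochondria libraries. In all genes tested, 82 lower and 59 higher calls became 11 and 2 with no filter, which tests more genes, 37 and 19 with the replicate block, and 21 and 13 without both libraries numbered 3. They ranged from 10 to 49 and from 2 to 41 when single libraries were left out. When single libraries were left out, the log2 change of Psat1 ranged from −0.33 to 0.021, the latter without control replicate 3, that of Hspa5 from −0.089 to 0.16 and that of Hsp90b1 from −0.20 to 0.030, so the sign of these 3 depended on the libraries kept; the cause was not tested. Over the same fits Atf4 ranged from −0.34 to −0.079, Phgdh from −0.27 to −0.070 and Ddit3 from −0.45 to −0.083, each nearest 0 without control replicate 1. Apart from Psat1, the 10 genes had a negative log2 change in every setting that tested them. A mean of at least 5 FPKM left Chac1 untested. No other scaling moved the median of all genes beyond −0.01 to 0.00.

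Libraries with the same replicate number had correlations of their deviations from the group means of 0.10, 0.05 and 0.30. The value for replicate 3 was the highest of all pairs, and control replicate 3 was at −0.20 and −0.13 with mitochondria replicates 1 and 2. Control replicate 2 correlated best with mitochondria replicate 1 (0.12), and the numbers were not taken as pairs in the reported fit. With the replicate block the SE went from 0.20 to 0.06 for Psat1, from 0.19 to 0.08 for Ddit3 and from 0.11 to 0.06 for Phgdh. None of these was called (limma adjusted p = 0.342, 0.234 and 0.324). Asns was called with the replicate block (adjusted p = 0.0385). Depth limits Chac1 most, at about 84 to 125 fragments per library.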
